A study of Homo sapiens with 8 samples.

Results

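The HOXB cluster is a run of 9 homeobox genes, HOXB1 to HOXB9, on human chromosome 17 (chr17:48528526-48633572 in hg38, 105 kb), and its open chromatin was compared in U-937 cells. Regions of open chromatin were taken when they overlapped the body of one of the 9 genes with 10 kb on each side, or the 100 kb beyond each end of the cluster. This choice used gene positions only. It gave 20 regions of the 161291 formed from the 4 deposited peak lists, 7 of them within 10 kb of a HOXB gene and 13 in the flanks only. They are called R01 to R20 here, in order from the side of SKAP1, a T cell adaptor gene, to the side of HOXB13.

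The study used ATAC-seq, an assay that marks open chromatin by the insertions of a transposase, on 8 samples of U-937, a human line of monocytic character that the labels class as acute myeloid leukaemia (AML) cells. All samples were kept in RPMI1640 medium with serum and antibiotics and collected 24 h after treatment, 2 samples in each of 4 groups. The groups received DMSO, the vehicle, or ATRA (all-trans retinoic acid, which binds and activates retinoic acid receptors) at 0.1 µM, or Corin (an inhibitor built to act on the histone deacetylase and the demethylase LSD1 of the CoREST corepressor) at 0.1 µM, or both compounds at 0.1 µM each. One line was used, and the data hold 1 peak list per group, made from both samples, so no spread between replicates and no test between groups could be had for any value below. The intervals given are 95% counting intervals, which leave out variation between cultures and libraries. Among markers of blood lineages, 9 of 12 myelomonocytic genes had a region within 1 kb of a start with DMSO (SPI1, CSF1R, CD33 and LYZ among them, and not CD14, MPO or FCGR1A). So did 2 of 4 T cell genes, 3 of 4 B cell genes and 1 of 4 erythroid genes. Over all coding genes the share was 71.3% with DMSO, so none of these counts is read as a sign of lineage.

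HOX genes encode homeodomain transcription factors that give cells their position along the body axis, and in blood several of them are active in stem and progenitor cells and fall silent as cells mature. In the HOXB cluster all genes point the same way, HOXB1 lies at the end that responds first to retinoic acid in embryonic cells, and paired receptor sites near HOXB1 and within the cluster are known for that response. The HOX proteins bind DNA with cofactors of the PBX and MEIS families. HOXB4 is known for expanding blood stem cells, and several other members have been linked to leukaemia or progenitor growth.

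The sequences below belong to the regions whose calls are described further on. The first set is shown because these 3 regions, R04, R07 and R09, held the letters TGANTCA, the core bound by AP-1 factors, at their summits, and were the regions called higher or newly found with Corin. Capitals mark the matches, on the plus strand of hg38, at chr17:48442994-48443094, chr17:48484995-48485095 and chr17:48505975-48506075.
R04: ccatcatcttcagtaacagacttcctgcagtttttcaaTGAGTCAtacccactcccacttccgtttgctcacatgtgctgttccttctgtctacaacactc
R07: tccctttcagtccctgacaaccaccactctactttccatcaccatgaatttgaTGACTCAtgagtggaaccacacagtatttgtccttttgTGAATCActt
R09: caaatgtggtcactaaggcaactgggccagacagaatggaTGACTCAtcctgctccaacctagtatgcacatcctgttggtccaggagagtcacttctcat

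The next sequence is shown because R18 was the one region called higher with ATRA. Capitals mark CpG dinucleotides, of which the 200 bp at its summit held 16 (chr17:48678505-48678704, plus strand). R07 was added to this display after its values were seen.
R18: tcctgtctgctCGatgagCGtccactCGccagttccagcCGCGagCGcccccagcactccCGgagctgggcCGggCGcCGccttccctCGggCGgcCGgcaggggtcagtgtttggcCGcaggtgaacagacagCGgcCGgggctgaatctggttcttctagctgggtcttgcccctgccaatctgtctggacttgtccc

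The last set holds direct repeats of the core hexamer bound by retinoic acid receptors, shown because ATRA acts through such sites and because none of these lay inside an open region. Capitals mark the paired hexamers, printed on the minus strand, the strand of the HOXB genes. The repeat with a spacer of 2 lies in a HOXB7 intron (chr17:48618325-48618350), the first with a spacer of 5 lies between R09 and HOXB1 (chr17:48522268-48522296), and the other with a spacer of 5 lies in a noncoding exon of HOXB3 (chr17:48555424-48555452).
Spacer 2, HOXB7 intron: ggatgcGGGTCAgcAGGTCAggtgag
Spacer 5, beside HOXB1: cttcccGGTTCAtagagAGTTCAgccctg
Spacer 5, HOXB3 exon: aatctcGGTTCAagaagAGTTCAcaagct

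Most of the HOXB regions were open under every treatment, and most HOXB genes had no region within 1 kb of a start. Of the 20 regions, 15 (75%) were called in all 4 lists, where 41.1% of all union regions were. The lists held 18 HOXB regions with DMSO, 19 with ATRA, 16 with Corin and 17 with the combination. Per Mb this was 59.0, 62.3, 52.5 and 55.7 regions, against 37.7, 36.9, 33.0 and 30.7 over the whole lists. The 18 regions of the DMSO list fall in 17 of the 20, since R11 was called there as 2 separate pieces.

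Strong regions were rare in the cluster and its flanks. Each list had 1 HOXB region among its strongest 20% by the authors' −log10 p, which was R13 with DMSO, ATRA and the combination and R09 with Corin. Median ranks of the HOXB regions, as the percent of their own list that is weaker, were 57.4 with DMSO, 40.5 with ATRA, 52.5 with Corin and 53.5 with the combination. Within the 105 kb of the cluster, open regions covered 3.96%, 3.81%, 3.36% and 3.95% in the same order, against 2.41%, 2.34%, 2.09% and 2.14% of the genome. Their GC content over the 200 bp at the summit ran from 39% in R03 to 72% in R08, with a median of 52.5% against 49.5% for all union regions.

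**Figure D1:**
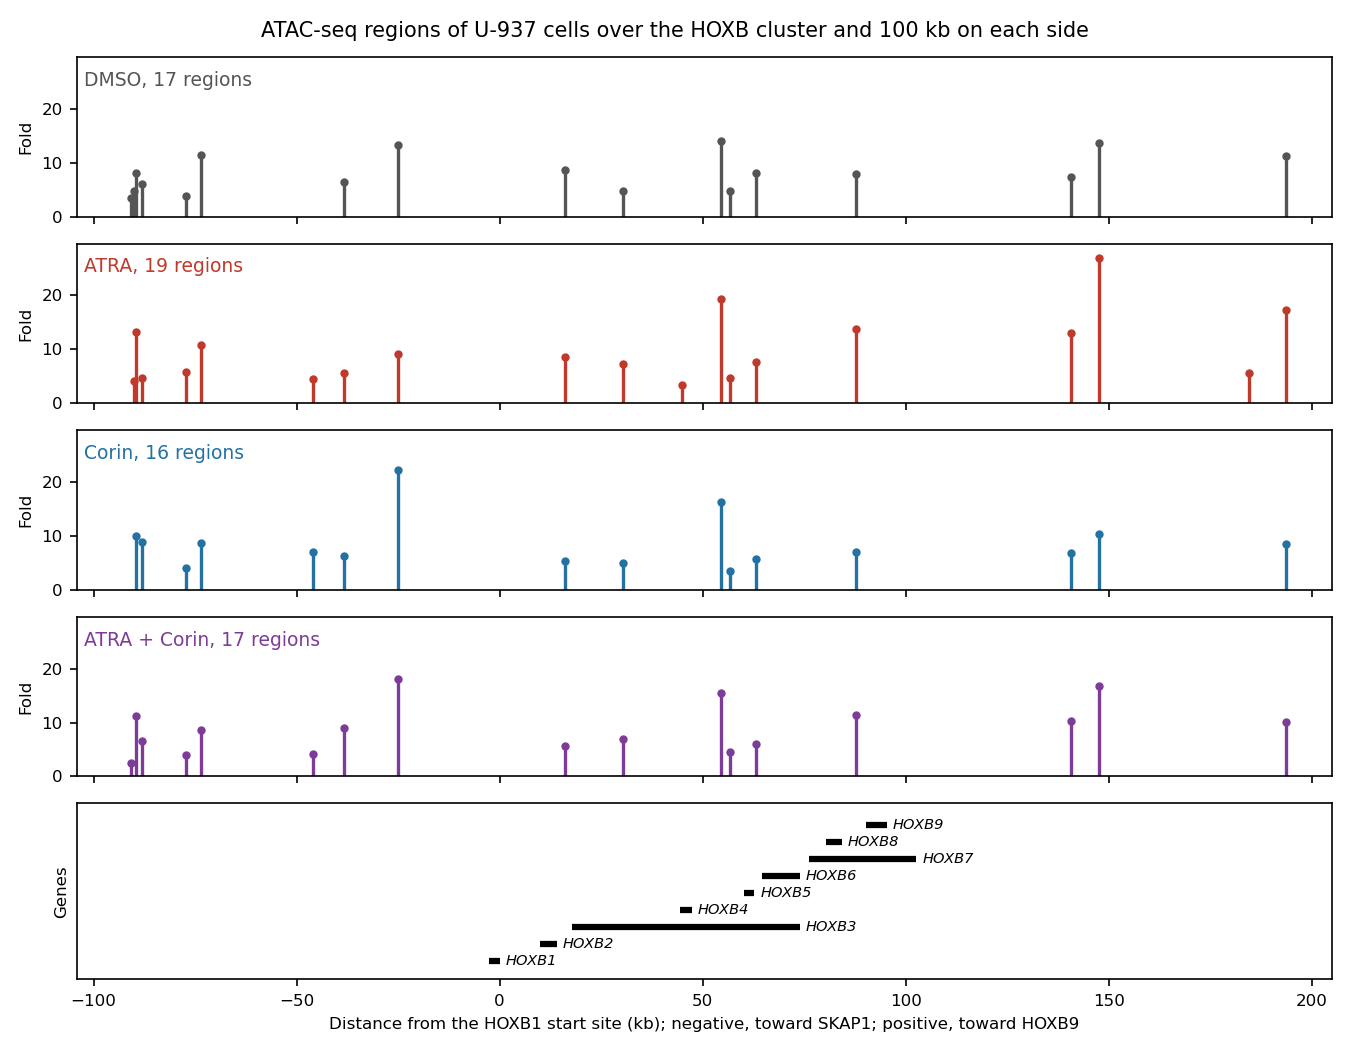
Each stem is a region, placed by the distance of its summit from the HOXB1 start in kb (x) and as high as the authors' fold over local background (y), with 1 panel per list and the HOXB genes at the bottom. The stem near 54.5 kb, between HOXB4 and HOXB5, was the highest inside the cluster in all 4 lists, and the stem at 147.6 kb reached 26.9 with ATRA.

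At the HOXB1 end no open region was called in any list. HOXB1, an early retinoid-responsive member in embryonic cells, had no called region within 10 kb of its body. The nearest summit, that of R10, lay 16143 bp from its start. The stretch chr17:48506291-48546561, 40.3 kb long and holding the whole of HOXB1 and HOXB2, had no region in any list. A longer empty stretch of 52.6 kb, chr17:48618946-48671515, began beyond R16 and held the HOXB9 gene, the far start of HOXB7 and the miRNA gene MIR196A1.

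Among promoters of the members, the HOXB5 promoter was open in all 4 lists, and 8 of 9 members had no region within 1 kb of any start with DMSO. The same 1 of 9 count held with Corin and with the combination, and with ATRA it was 2 of 9 (HOXB5 and HOXB3). Over all 20033 coding genes the share with a region within 1 kb of a start was 71.3% with DMSO, 69% with ATRA, 69.6% with Corin and 69.1% with the combination. For HOXB3 the start concerned belongs to a noncoding transcript 272 bp from R12, and with coding transcripts alone the count with ATRA was 1 of 9. Within 2.5 kb of a start the counts were 3, 4, 3 and 3 of 9, against 76.2%, 74.01%, 74.5% and 73.8% of coding genes.

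R15, which marks the HOXB5 promoter, has its summit 282 bp upstream of the HOXB5 start. HOXB5 encodes a homeodomain factor used as a marker of long-term blood stem cells in mice. The authors' fold over local background at R15 was 8.12 with DMSO (6.69 to 9.76), 7.61 with ATRA (6.02 to 9.50), 5.66 with Corin (4.50 to 7.04) and 6.11 with the combination (4.97 to 7.44). The DMSO value was the highest of the 4, and all 4 intervals of the fold overlapped. Against shared regions of like strength R15 was at −0.51 (−0.96 to −0.09) with ATRA, −0.36 (−0.80 to 0.07) with Corin and −0.41 (−0.82 to −0.01) with the combination on the log2 scale. By fold all were under the limit of 1.5-fold for a call. By the solved count at the summit, the pileup described below, R15 was 1.57-fold lower with ATRA, past that limit. R15 also lies in the introns of long HOXB3 transcripts and of HOXB-AS3, which runs antisense, and the peak lists carry no strand that could assign it to one of them.

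R13 is the strongest region between the HOXB genes, 54.5 kb from the HOXB1 start, between HOXB4 and HOXB5 and inside introns of HOXB3 and HOXB-AS3. Its fold was 14.1 with DMSO (12.5 to 15.7), 19.4 with ATRA (17.8 to 21.1), 16.3 with Corin (14.5 to 18.3) and 15.4 with the combination (14.1 to 16.9). The ATRA value was the highest, and its interval overlapped that of Corin but not that of DMSO or the combination. In rank, R13 was stronger than 80.4% of the DMSO list, 87.2% of the ATRA list, 79.1% of the Corin list and 81.6% of the combination list.

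In height above zero R13 differed more between lists than in fold, and the background around it differed as well. The pileup is the count stacked at the summit, as solved from the authors' p and fold. It was 300 with DMSO, 531 with ATRA, 287 with Corin and 478 with the combination. The local background was 20.4, 26.4, 16.6 and 30.1 in the same order, which is 1.596, 2.90, 1.27 and 2.16 times the most frequent background of the list. Thus the 2 lists with ATRA had both the higher pileup and the higher solved background. The samples include no control, and how the background was computed is not known. It may hold the signal of R13 and R14 themselves, so the 2 values are not taken as independent. Against all shared regions, the change of R13 with ATRA was 1.14-fold by fold (0.19 on the log2 scale, −0.01 to 0.40) and 1.56-fold by pileup, the latter a measure added after the data were seen. R14, its neighbour on the HOXB5 side with a summit match to the PU.1 letters, had a local background of 1.64, 2.95, 1.31 and 2.27 times the list's most frequent background. Its fold stayed between 3.45 and 4.78, and its pileups were 104, 130, 62 and 147.

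**Figure D2:**
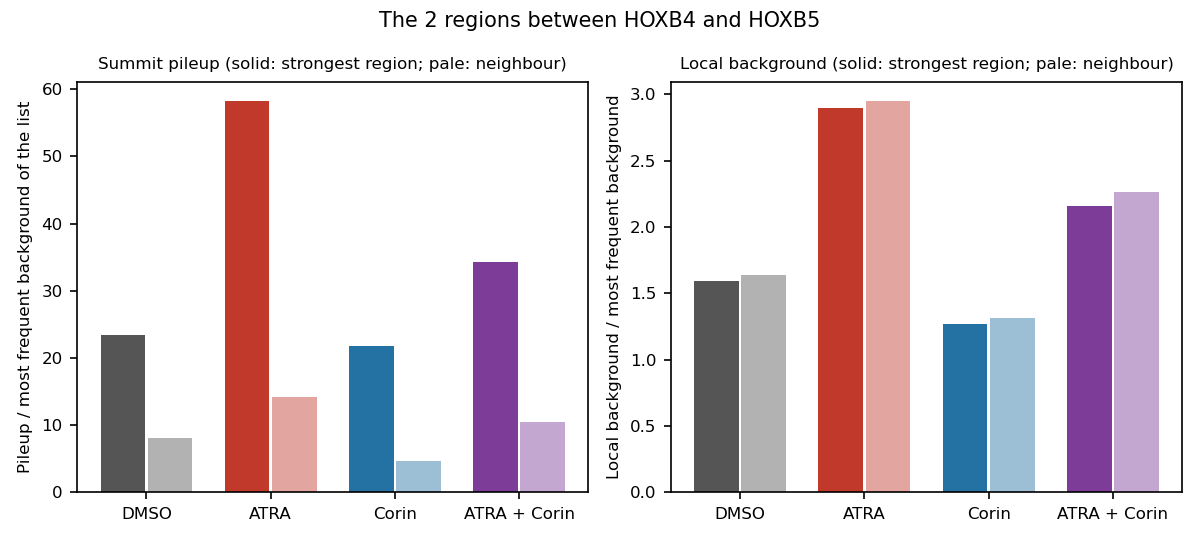
Bars give the solved pileup at the summit (left) and the solved local background (right) of R13 (solid) and R14 (pale), each divided by the most frequent background of its list, by treatment; no error bars are drawn, since each group has 1 list. At R13 the left bars stand at 23.4, 58.2, 21.8 and 34.3 and the right bars at 1.596, 2.90, 1.27 and 2.16 for DMSO, ATRA, Corin and the combination.

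R10 lies 2045 bp upstream of the HOXB2 start and was the only region within 10 kb of HOXB2. It also lies in an intron of the antisense gene HOXB-AS1, 462 bp from a start of that gene. HOXB2 is a hindbrain patterning gene. The fold of R10 was 8.62 with DMSO (7.15 to 10.3), 8.50 with ATRA (6.81 to 10.5), 5.38 with Corin (4.24 to 6.72) and 5.69 with the combination (4.55 to 7.03). By fold both lists with Corin were lower than both without it. Against all shared regions of like strength, the comparison described further on, this split was not seen: R10 was at −0.47 (−0.90 to −0.06) with ATRA, −0.52 (−0.96 to −0.10) with Corin and −0.60 (−1.03 to −0.19) with the combination on the log2 scale, and at −0.07 (−0.52 to 0.39) with the combination over ATRA. The 200 bp at its summit hold a MEIS match and a CEBP match.

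R16 was the sole region near HOXB7, HOXB8 and HOXB9, 3456 bp upstream of the HOXB8 start and in an intron of a long HOXB7 transcript. HOXB8 is known for holding myeloid progenitors in an immature state when it is expressed at high level. R16 had a fold of 7.83 with DMSO (6.43 to 9.44), 13.8 with ATRA (11.7 to 16.3), 7.003 with Corin (5.70 to 8.52) and 11.5 with the combination (9.80 to 13.3). The 2 lists with ATRA stood above the 2 without it, with no overlap of the intervals. The median fold ratio of ATRA over DMSO was above 1 over all shared regions, and the difference at R16 is 0.45 (0.08 to 0.83) on the log2 scale once shared regions of like strength are used as the base, and it was not called.

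R11, in introns of HOXB3 and HOXB-AS3 and 4387 bp from the nearest HOXB3 start, was broader, at 976 bp, and weaker. HOXB3 encodes a homeodomain factor of early blood progenitors. Its folds were 4.78 with DMSO, 7.22 with ATRA, 5.02 with Corin and 6.96 with the combination. With DMSO it was called as 2 pieces and with ATRA as its HOXB1-side part alone, which ended at position 48561667, whereas with DMSO, Corin and the combination it reached 48562139, 48562144 and 48562109.

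R12 was found with ATRA only, over the 3′ part of HOXB4, where the annotation has its untranslated end, and 272 bp from a noncoding HOXB3 start. HOXB4 is the member best known in blood stem cells. The region was 157 bp wide with a fold of 3.36 (2.34 to 4.68), and it ranked above 7.49% of the ATRA list. It is thus among the weakest regions of that list. The HOXB4 start itself, 2528 bp from R12, had no region in any list, and neither did the miRNA gene MIR10A between HOXB4 and HOXB5, 4125 bp from R12.

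The first question the design sets is what each compound changed against the vehicle. Folds were compared over regions found in both lists as log2 ratios, minus the median of all shared regions of like strength, because the median ratio before this centring was 0.33 with ATRA, −0.09 with Corin and 0.03 with both. A change past 1.5-fold was called higher or lower. Each percent that follows a count gives the same share over all regions of the lists.

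With ATRA, 3 of 19 HOXB regions were gained (R07, R12 and R19), where 23.1% of all ATRA regions were. Of the 18 DMSO regions 2 were lost (R01 and a piece of R11), where 25.3% were over the whole list. Of 16 shared regions 1 was higher (15.6% over all shared regions) and 3 were lower (9.71%). The higher one was R18, toward HOXB13, and the lower ones were R04, R08 and R09, all on the SKAP1 side of HOXB1. By fold, none of the 6 shared regions within 10 kb of a HOXB gene was called. The median centred change over the 16 was −0.11, against 0 over all shared regions by construction.

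The split between higher and lower depended on the scale. Without centring, 6 of the 16 were higher and none was lower, and R04, R08 and R09 were then at −0.37, −0.20 and −0.55. With the pileup in place of the fold 1 was higher and 7 were lower. Of the regions within 10 kb of a HOXB gene, R13 was higher by pileup (0.64), and R10 (−0.59) and R15 (−0.65) were lower. The most frequent background of the ATRA list, 9.12, was the lowest of the 4, against 12.8 with DMSO, 13.1 with Corin and 13.9 with the combination, and the part of this difference in the result was not tested.

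R18 lies 147.6 kb from the HOXB1 start on the HOXB13 side, in an intron of the long noncoding RNA gene LINC02086 and 2284 bp from one of its starts. Its fold was 13.6 with DMSO (11.8 to 15.7), 26.9 with ATRA (23.8 to 30.3), 10.4 with Corin (8.79 to 12.2) and 16.8 with the combination (14.8 to 19.0). The ATRA value stood alone above the other lists, and the combination lay between ATRA and DMSO, with an interval overlapping that of DMSO. After centring the change with ATRA was 0.72 (0.45 to 0.998), or 1.65-fold, above 88.3% of shared regions. On the pileup scale it was 1.29-fold and was not called.

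R17, nearer to the cluster in the same gene, had the same order of lists, with folds of 7.39, 12.9, 6.79 and 10.2 for DMSO, ATRA, Corin and the combination. So had R20, at the annotated end of PRAC2 and 4068 bp from the HOXB13 start, with 11.2, 17.3, 8.49 and 10.0, except that its combination value lay below DMSO. Neither was called after centring, at 0.38 and 0.29 for ATRA. HOXB13 is the last HOX gene on this side and is used as a prostate marker.

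R09, the region nearest to HOXB1 on the SKAP1 side, 24986 bp from its start, had the widest range of folds on that side. The fold was 13.3 with DMSO (11.5 to 15.4), 9.09 with ATRA (7.34 to 11.1), 22.3 with Corin (19.9 to 24.8) and 18.1 with the combination (15.99 to 20.4). The 4 lists fell in the order ATRA, DMSO, combination and Corin, with no overlap of intervals between ATRA and DMSO or between DMSO and the lists with Corin. The centred change was −0.94 (−1.33 to −0.58) with ATRA and 0.76 (0.50 to 1.03) with Corin, lower than all but 3.19% of shared regions in the former case and above 95.5% in the latter.

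R04, 88.0 kb from the HOXB1 start and 12769 bp from the SKAP1 start, moved in the same directions. Its fold was 6.03 with DMSO (5.21 to 6.94), 4.66 with ATRA (3.69 to 5.80), 8.89 with Corin (7.88 to 9.99) and 6.63 with the combination (5.74 to 7.62). The Corin value stood above the other lists, and the ATRA and DMSO intervals overlapped. The centred change was −0.80 (−1.21 to −0.42) with ATRA and 0.68 (0.41 to 0.96) with Corin. R08, a GC-rich region 38.3 kb from the HOXB1 start, was lower with ATRA, with a log2 change of −0.61 (−1.14 to −0.12), and it was not called with Corin, at 0.13. With 1 median over all shared regions R08 was at −0.54 with ATRA, which is under the limit, and 2 regions were lower with ATRA. Unlike R09, R04 with either compound and R08 with ATRA lay within the 5th to 95th percentile of shared regions of like strength.

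R04 is the last of 4 closely spaced regions, R01 to R04, on the side of SKAP1. The background around them was raised in every list that held them, by 2.38 to 2.45 times the most frequent background with DMSO and by 1.71 to 1.75 times with ATRA. R03 was the strongest, with folds of 8.07, 13.1, 10.1 and 11.3 for DMSO, ATRA, Corin and the combination. Its centred change with ATRA was 0.33 by fold and −0.42 by pileup, so its direction depended on the measure. R01 was called with DMSO and the combination only, at 3.37 and 2.495, and R02 with DMSO and ATRA only, at 4.72 and 4.09. R05 and R06, between these and R07, were called in all 4 lists, at 3.84 to 5.73 and at 8.57 to 11.4, with no call in any comparison.

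With Corin, 1 of 16 HOXB regions was gained, R07 (17.7% of all Corin regions were gained), and 2 of 18 DMSO regions were lost, R01 and R02 (28.5%). Of 15 shared regions 2 were higher, R04 and R09 (7.72%), and none was lower (8.64%). Without centring 1 was higher and 1 lower, and with 1 median over all shared regions 2 were higher and 1 lower. The median centred change over the 15 was 0.00. No shared region within 10 kb of a HOXB gene was called, and R10 had the lowest centred change there, −0.52 (−0.96 to −0.10).

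R07, 46.0 kb from the HOXB1 start, was absent with DMSO and present in the other 3 lists. The fold was 4.45 with ATRA (3.26 to 5.94), 7.003 with Corin (5.70 to 8.52) and 4.15 with the combination (3.19 to 5.31). Its rank was above 52.5% of the Corin list, 17.96% of the ATRA list and 28.1% of the combination list. Of all union regions, 0.952% had this pattern of lists. R19, the third region gained with ATRA, lay 184.6 kb from the HOXB1 start, had a fold of 5.54 (4.19 to 7.18) and was in no other list.

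The AP-1 letters TGANTCA were found in the 200 bp at the summit of 3 of 20 HOXB regions, against 12.2% of all union regions. These were R04, R07 and R09, the sequences printed first, with the match 9, 6 and 7 bp from the summit by its centre, and R07 held another match 44 bp away. At any summit of a region rather than the strongest, 4 regions held them, R17 included. The share of 3 in 20 is near that of all regions. In the Corin list the 3 with the letters were the gained region and both regions called higher, a match seen after the calls were known. Over all regions, the letters were at the summit of 16% of the Corin list, in 20.4% of its gains over DMSO and in 51.5% of the shared regions called higher. With ATRA, R04 and R09 were lower and R07 was gained, where 26.7% of all lower and 6.67% of all gained regions held the letters. A match is a description of the letters and shows no bound factor.

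**Figure D3:**
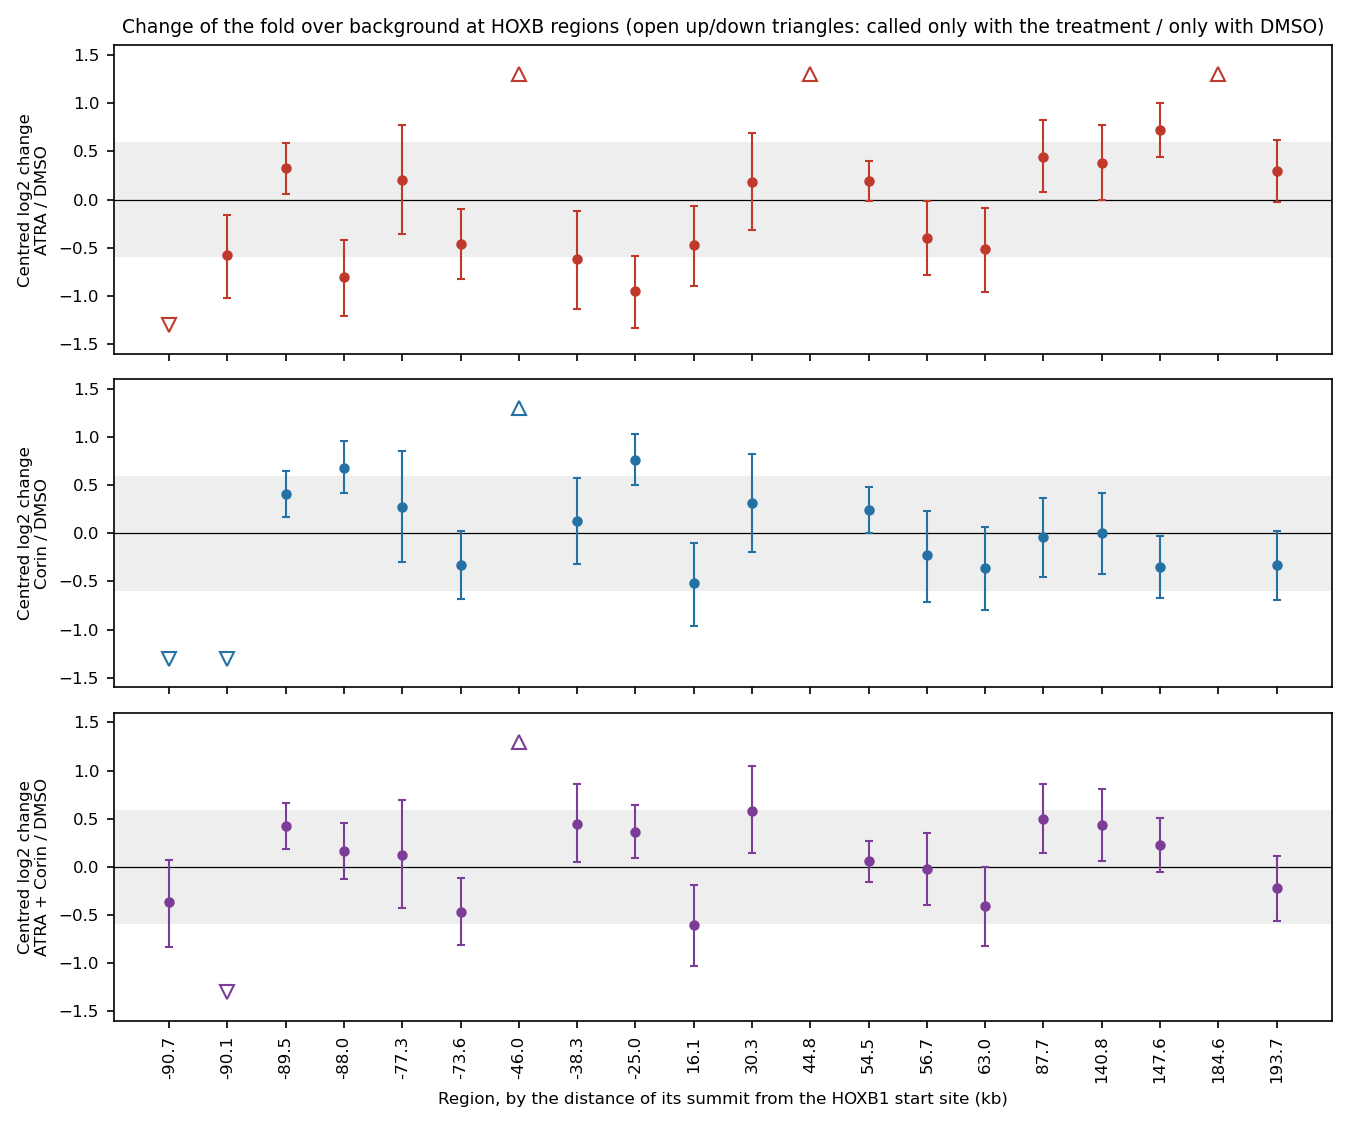
Points give the centred log2 change of the fold at each HOXB region (y) for each treatment against DMSO, with 95% counting intervals, ordered by distance from the HOXB1 start in kb (x, not to scale); the grey band marks changes under 1.5-fold and triangles mark regions called in 1 of the 2 lists only. The points for R04 and R09, at −88.0 kb and 24986 bp on the SKAP1 side of HOXB1, lie below the band with ATRA and above it with Corin, and the point at 147.6 kb lies above it with ATRA.

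With both compounds, 1 shared HOXB region was called against the vehicle. Of 17 regions 1 was gained, again R07 (16.7% over the list), and of 18 DMSO regions 1 was lost, R02 (31.5%). None of 16 shared regions was higher (9.14%), and R10 near HOXB2 was lower (11%), with a log2 change of −0.60 (−1.03 to −0.19). By pileup 3 regions were higher and none was lower. R16 and R11 had centred changes of 0.49 and 0.58 by fold, under the limit. R04 and R09, which moved in opposite directions with the single compounds, had changes of 0.17 (−0.13 to 0.46) and 0.36 (0.09 to 0.64).

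The second question is what adding one compound changed in cells given the other. Against ATRA alone, the combination gained 1 of 17 regions, R01 (15.5% over the list), and lost 3 of 19, R02, R12 and R19 (28.4%). Of 16 shared regions 3 were higher, R04, R08 and R09 (9.3%), and none was lower (15.7%). The median ratio before centring was −0.34, and without centring 2 were higher and 2 lower. R04, R08 and R09 are the regions that were lower with ATRA than with DMSO, and both comparisons share the ATRA list. Their changes were 1.08 (0.71 to 1.49), 1.21 (0.76 to 1.71) and 1.28 (0.94 to 1.65), and each stood above at least 98.3% of shared regions. R18 changed by −0.51 (−0.76 to −0.26), which is under the limit.

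Against Corin alone, the combination gained 1 of 17 regions, R01 (20.6%), and lost none of 16 (25%). Of 16 shared regions none was higher (9.37%), and R07 was lower (9.12%), with a log2 change of −0.91 (−1.41 to −0.45). The median ratio before centring was 0.10, and without centring 3 were higher and 1 lower. By pileup 1 was higher and 3 were lower. Next in size by fold were R18 at 0.58 (0.28 to 0.89), R16 at 0.58 (0.21 to 0.96) and R04 at −0.56 (−0.84 to −0.30), all under the limit. Adding ATRA to Corin thus left the HOXB5 promoter region R15 at a change of −0.04 (−0.48 to 0.41) and R13 at −0.19 (−0.40 to 0.03).

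**Figure D4:**
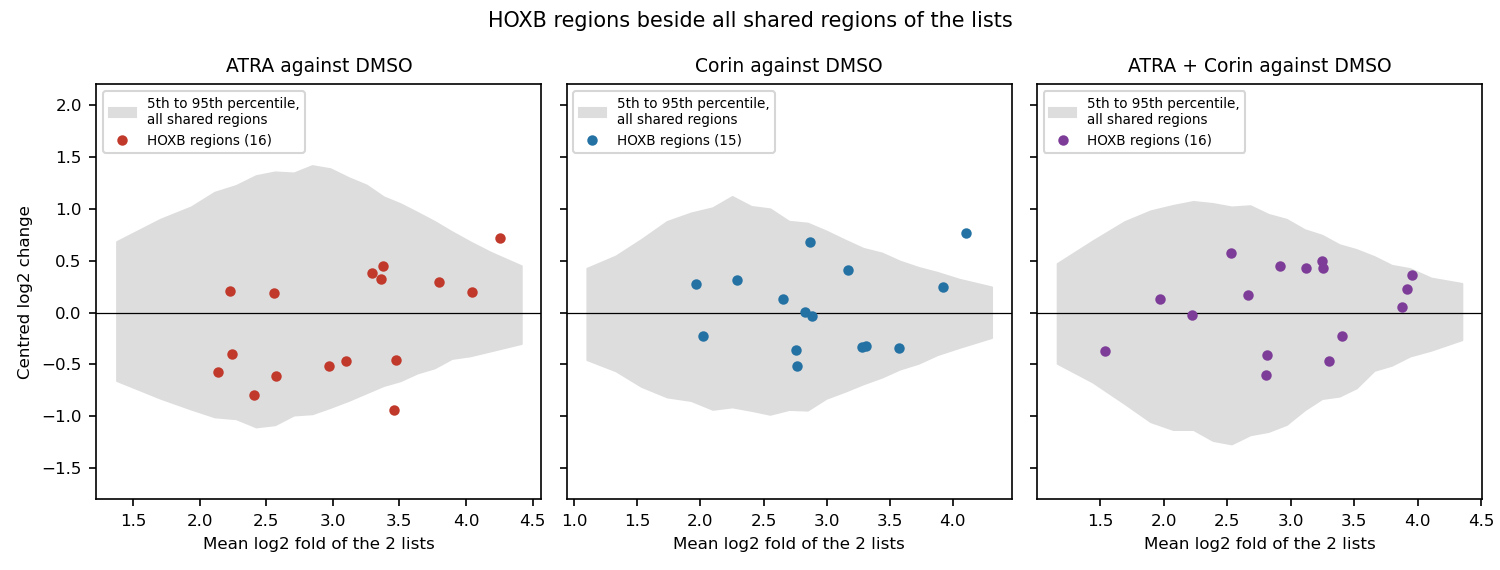
Points are the shared HOXB regions, by the mean log2 fold of the 2 lists (x) and the centred log2 change against DMSO (y), and the grey band spans the 5th to 95th percentile of all shared regions of like strength. R09 lies below the band with ATRA and above it with Corin, R18 lies above it with ATRA, and most HOXB points lie inside.

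Retinoic acid receptor repeats were looked for across the whole 305 kb (chr17:48428526-48733572) because ATRA is the ligand of these receptors. Direct repeats of the receptor's hexamer, by its usual consensus, with a spacer of 1, 2 or 5 bases were searched on both strands, and the span held 4, 8 and 2 of them. None of the 14 lay inside a called region of any list, at distances of 95 to 15984 bp. Called regions of all lists together covered 4.63% of the cluster and 3.47% of the genome, so finding none of 14 inside them says little. The share covered over the 305 kb, where the 14 were searched, is not given here. Several of the spacer 2 repeats had identical letters, on one strand or the other, so the 8 are not taken as independent sites. Repeats with a spacer of 1, 2 or 5 were rare at the summits of all union regions, in 0.0719%, 0.17% and 0.0905% of them. The nearest to a region was the spacer 2 repeat printed above, 95 bp from R16, the region by HOXB8. R16 had its highest fold with ATRA, as had R13, R17, R18, R20 and others, and was not called after centring. Its pileup was higher with the combination, at 170, than with ATRA, at 139. Divided by the most frequent background of the list, the order was reversed, at 12.2 with the combination and 15.25 with ATRA. A link between the repeat and R16 was not tested. The repeats with a spacer of 5 lay 6252 bp from the HOXB1 body and 15984 bp from R09, and in HOXB3 at 5739 bp from R11. That these letters are not in a window says nothing about where the receptor bound.

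Other motifs at the 20 summits were few. The MEIS letters TGACAG, of a HOX cofactor, were in 5 (R01, R02, R10, R11 and R19), against 15.3% of all union regions. The PU.1 letters GAGGAAGT were in R14 (6.73%), and the CEBP letters TTGCNNAA were in R10 (14.5%). The CTCF core (3.08%), the GFI1 letters AANCACNGC (3.56%) and the HOX-PBX letters TGATNNAT (6.11%) were in none.

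The other HOX clusters were described by the same windows of 10 kb around gene bodies. With DMSO a region lay within 1 kb of a start in 8 of 11 HOXA genes, 6 of 9 HOXC genes and 2 of 9 HOXD genes, beside 1 of 9 HOXB genes. HOXA genes are the HOX genes best known in myeloid leukaemia. With ATRA the HOXA windows had none higher and 4 lower of 23 shared regions. They gained 10 of 38 ATRA regions and lost 4 of 28 DMSO regions. The HOXC windows had 1 higher and 2 lower of 18, gained 7 of 26 and lost none of 19. The HOXD windows had no call among 5, gained none of 5 and lost 6 of 11. Within the HOXB windows none of 6 was called, 1 of 7 was gained and 1 of 7 was lost. Over all regions 15.6% were higher, 9.71% lower, 23.1% gained and 25.3% lost with ATRA. The difference between clusters was not tested.

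Genes that work with HOX proteins or control HOX clusters were counted beside all coding genes, of which 69% to 71.3% had a region within 1 kb of a start. Of 11 PBX, MEIS, PKNOX and TGIF genes, 10 had a region within 1 kb of a start in every list, all but PKNOX2. Of 16 regulators, among them KMT2A, MEN1 and DOT1L of the leukaemic HOX programme and EZH2, SUZ12 and EED of the Polycomb complex, 13 had one in every list, and CDX1, CDX2 and CDX4 had none. Around the cofactor genes 12 of 77 shared regions were higher and 8 lower with ATRA, and 5 and 3 of 69 were with Corin. Around the regulators the counts were 14 and 6 of 81 with ATRA and 5 and 6 of 73 with Corin. The shares over all shared regions were 15.6% higher and 9.71% lower with ATRA and 7.72% and 8.64% with Corin, so none of these counts is read as a result about these genes.

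The outermost regions show how the limit of 100 kb cut the locus. Just inside were R01, 88.0 kb from the cluster, and R20, at 90.8 kb. Just outside were chr17:48407188-48407552, 121 kb from the cluster on the SKAP1 side, with a fold of 8.70 with ATRA and 3.82 with the combination, and chr17:48745260-48745460, 112 kb from it on the other side, with 2.77 with ATRA only.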

How the data were processed

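ATAC-seq of U-937 cells was deposited as 1 peak list in narrowPeak form for each of 4 groups of 2 samples, assigned to a group by the treatment that its name carries, and the authors combined the 2 samples before the lists were made. Per the submitters' processing notes, cutadapt, Bowtie2, SAMtools, Picard and MACS2 were used with build hg38, and their order and versions are not given in the sources used here. The deposited fold is a ratio of the summit over its local background, and the deposited p-values and q-values are −log10 values. These scores are the authors'. The deposited summit is an offset in bp. No peak end lay beyond the hg38 chromosome lengths, and 0 columns of per-sample values were left out. How many reads each sample had is unknown.

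Within a list, peaks that overlap were joined into regions, and regions of different lists sharing at least 1 bp were joined into union regions. The peak with the highest −log10 p stood for a region. Folds were centred within 20 classes of mean log2 fold, and 1.5-fold was the limit for a call. Each peak's p and fold were solved for its pileup and local background, with 1 added to each as in the fold, and pileups came out whole within 0.05 for 99.97%, 99.98%, 99.98% and 99.96% of peaks with DMSO, ATRA, Corin and the combination. Intervals of folds are exact Poisson ones on these pileups with the background held fixed. Those of changes are exact binomial ones on the 2 pileups, with the backgrounds and the median used for centring held fixed. Reads were counted without molecular identifiers, so the intervals cover counting error only. Whether fragments or read ends were stacked is not known. If 1 fragment counted more than once, the intervals are too narrow. The calls and the solving were tried on simulated data. For the calls these were Poisson counts with 1 background level per list, without raised local backgrounds or variation between cultures. The solving was tried on values made by the same formula, so neither shows how the calls behave in the real lists. Genes are those of GENCODE release 44, and sequences are from the hg38 genome.

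The members, gene lists, motifs and alternatives were chosen with earlier results of these data known. Named regions were those at member starts, the strongest gained and lost ones, the 4 with the largest change in each direction, those with receptor repeats and the 3 strongest in each list. R01 to R20 not covered by this were described after their values were seen. The sequences of some regions are not reported here. Computation used Python 3.11.15, numpy 2.4.6, pandas 2.3.3, scipy 1.17.1 and matplotlib 3.10.9.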

Additional observations from a re-analysis of the deposited data

How the results depend on the processing

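No paired analysis was possible because each group has 1 list that holds both samples, and no sample could be left out for the same reason. Of 172 recomputed counts 128 stayed within 1.5 times the reported one and 44 moved, and no called change of a region reversed. A limit of 5 on −log10 q, lists of equal length, windows of 5 kb, the highest-fold peak and every summit moved none of them past 1.5 times. Some of these could not move. The flanks cover the 5 kb windows, so 10 of the 172 counts were fixed in advance. The limit on q dropped no HOXB region, since the lowest −log10 q among them was 7.84, in R12. With lists of equal length, ATRA gained 2 regions and the combination lost 2 against ATRA. With peaks within 150 bp merged, losses against DMSO were 0 with ATRA, 1 with Corin and 0 with the combination, which then had 1 shared region higher and 2 lower. With an overlap of 50%, gains were 2 with Corin, 2 with the combination and 2 for the combination over ATRA.

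Without the flanks, ATRA gained 1 and lost 1, Corin gained 0 and lost 0, and the combination gained 0 and lost 0, gained 0 and lost 1 against ATRA and gained 0 against Corin. With 1 median for centring, 2 regions were lower with ATRA, R08 no longer among them, 1 was lower with Corin and 2 were higher for the combination over Corin. Without centring, ATRA had 6 higher and 0 lower, Corin 1 and 1, the combination 2 lower against ATRA and 3 higher against Corin. At 2-fold, ATRA had 0 higher and 0 lower, Corin 0 higher, and the combination 0 lower against DMSO and 0 lower against Corin. Pileup over background without the added 1 gave 2 higher for the combination over Corin.

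The pileup alone, added after seeing the data, gave 7 lower with ATRA, and for the combination 3 higher and 0 lower against DMSO, 6 higher against ATRA, and 1 higher and 3 lower against Corin. The causes were not tested. In 400 bp windows PU.1 letters were in 2 regions and MEIS letters in 9. Members with a region within 2.5 kb of a start numbered 3 with DMSO, 4 with ATRA, 3 with Corin and 3 with the combination, and with coding transcripts 1 with ATRA. With the read depth unknown and 1 list per group, a region absent from a list is one that was not called there.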
